A study of Mus musculus with 12 samples.

Results

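The genes described here are 8 members of the pathway by which vascular endothelial growth factor (VEGF) and class 3 semaphorins reach the cell. They are the neuropilins Nrp1 and Nrp2, the VEGF receptors Kdr and Flt1, the ligands Vegfa and Vegfb, and the plexins Plxna1 and Plxnd1. The group was chosen by measured values, because Nrp1 and Kdr were higher with luteolin in LPS-treated cells, and the other 6 genes were added as their relatives. Those 6 were also chosen with earlier results of these data known. All 8 passed the filter on low signal, out of 12071 genes tested and 18194 genes with a probe set. Together they had 19 probe sets, which are the array's groups of short probes against 1 transcript.

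Transcript levels were measured on Affymetrix whole-genome mouse arrays in BV-2 cells, an immortalized line of mouse microglia. Cultures received 50 µM luteolin with 50 ng/ml LPS, 50 ng/ml LPS alone, 50 µM luteolin alone, or neither agent, for 24 h, with 3 arrays in each of the 4 conditions. Luteolin is a plant flavonoid, and LPS (lipopolysaccharide) is a component of bacterial walls that activates microglia through a Toll-like receptor. All arrays come from this 1 line, and luteolin was dissolved in DMSO. Whether control cultures received DMSO is not given in the sources used here.

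Neuropilins are co-receptors without a signalling domain of their own. They present VEGF to its receptor tyrosine kinases and class 3 semaphorins to plexins, so both ligand families share them. Kdr is the main signalling receptor for VEGF-A in blood vessels, whereas Flt1 binds VEGF-A and VEGF-B tightly and is also made by monocytes and macrophages. Plexins act on small GTPases and thereby reshape the cytoskeleton. In microglia and macrophages these receptors are known for their part in migration and in contacts with vessels and axons.

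Each value below is a signal, the array intensity on the linear scale after the authors' RMA summary, and differences are on the log2 scale. A gene was represented by its probe set of highest mean signal. Signals of different probe sets cannot be ranked against each other. Because a culture was measured in bulk, fewer cells with a transcript and less of it per cell cannot be told apart. A gene was called when limma gave it an adjusted p (Benjamini-Hochberg, all 12071 genes) below 0.05.

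The promoters of 3 members are given first, because Nrp1 and Kdr were high and low in the same conditions whereas Nrp2 was not. The sequences are RefSeq windows on GRCm38.p6 of 300 bases, of which 250 lie before and 50 after the start of the gene, at chr8:128358823-128359122 on the plus strand for Nrp1, chr5:75978406-75978705 on the minus strand for Kdr and chr1:62703067-62703366 on the plus strand for Nrp2. Capitals mark matches to the motifs listed after them.
Nrp1: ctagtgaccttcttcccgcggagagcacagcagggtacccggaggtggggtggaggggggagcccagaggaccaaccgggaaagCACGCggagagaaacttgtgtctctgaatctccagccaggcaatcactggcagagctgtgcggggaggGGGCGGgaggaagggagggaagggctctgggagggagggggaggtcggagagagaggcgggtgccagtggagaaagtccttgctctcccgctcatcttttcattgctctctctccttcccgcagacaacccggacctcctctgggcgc
Kdr: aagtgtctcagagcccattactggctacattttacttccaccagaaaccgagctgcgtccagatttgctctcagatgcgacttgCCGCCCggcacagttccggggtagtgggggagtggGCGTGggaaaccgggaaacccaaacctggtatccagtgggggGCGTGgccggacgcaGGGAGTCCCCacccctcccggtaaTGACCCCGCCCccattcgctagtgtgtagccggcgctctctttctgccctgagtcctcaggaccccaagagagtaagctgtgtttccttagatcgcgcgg
Nrp2: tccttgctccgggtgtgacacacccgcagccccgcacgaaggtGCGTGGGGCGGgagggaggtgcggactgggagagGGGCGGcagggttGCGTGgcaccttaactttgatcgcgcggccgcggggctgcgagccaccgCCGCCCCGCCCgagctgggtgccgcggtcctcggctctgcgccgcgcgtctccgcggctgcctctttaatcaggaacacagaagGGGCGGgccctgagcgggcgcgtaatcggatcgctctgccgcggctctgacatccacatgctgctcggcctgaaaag
The motifs were searched on both strands. They were the GC box GGGCGG, 2 forms of the hypoxia response element (ACGTG and GCGTG), the core of the antioxidant response element (TGACNNNGC), the AP-1 site TGANTCA and the NFkB site. The Nrp1 window held 1 GC box and 1 match to GCGTG. The Kdr window held 2 GC boxes, 2 matches to GCGTG, 1 antioxidant response core that overlaps a GC box, and an NFkB site that matched on both strands. The Nrp2 window held 5 GC boxes, of which a pair overlap, and 2 matches to GCGTG. Windows were searched for 7 members. An NFkB site that matched on both strands was also found for Flt1 and in a Vegfa window. None was found in the other Vegfa window or for Nrp1, Nrp2, Vegfb or Plxnd1. Of 32851 mouse promoters of this length, 35.7% held the GC box, 19.6% ACGTG, 32.4% GCGTG, 12.4% the antioxidant response core, 7.8% the AP-1 site and 8.5% the NFkB site. A match describes the letters of the window and is not a measured binding site.

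One array stood apart from its group. Over the 181 genes that LPS raised by more than 1 log2 unit, the median excess over the control mean was 1.67, 0.778 and 1.83 log2 units in luteolin + LPS replicates 1, 2 and 3, against 2.14, 1.91 and 2.05 in the LPS arrays. Luteolin + LPS replicate 2 therefore carried a smaller LPS response than its 2 companions, and each member's difference between luteolin + LPS and LPS is given with and without it. The cells had high signals for the microglia and macrophage genes Cd68, Csf1r and Tyrobp, and the summed signal of the 10 markers was 40038 to 54804 in luteolin + LPS, 43750.5 to 51165 in LPS, 47224 to 53927 in luteolin and 48765 to 51750.5 in control arrays. Other markers were dim. Cx3cr1 had group means of 43.7 to 54.6, Tmem119 of 58.5 to 77.4 and P2ry12 of 23.1 in luteolin + LPS, 48.5 in LPS, 40.1 in luteolin and 73.8 in control arrays. Aif1 averaged 59.8 in luteolin + LPS, 224 in LPS, 94.3 in luteolin and 118 in control arrays, and Itgam 279, 447, 408 and 450.4 in the same order. None of the 10 was called in any comparison, but with the replicate block Aif1 was lower in luteolin + LPS than in LPS (adjusted p = 0.0455 by limma) and Tyrobp lower in LPS than in control (adjusted p = 0.0109). The part of these markers in the members' results was not tested. Arrays of the same replicate number deviated together, so differences within a replicate number are given beside the group values.

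**Figure D1:**
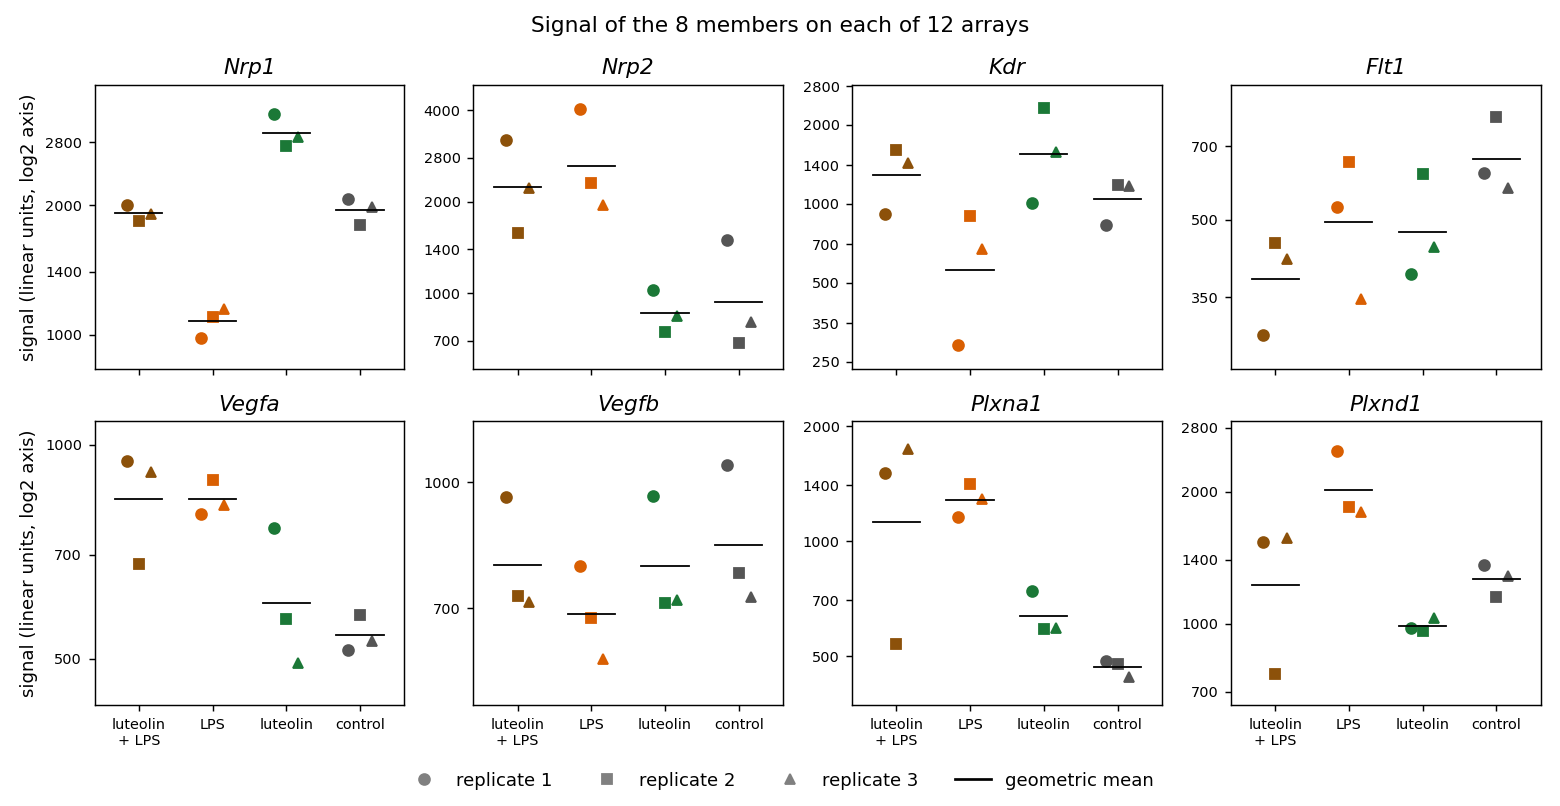
Signal of the 8 members on each of the 12 arrays, on a log2 axis with a separate scale for each gene. Each symbol is 1 array, with its shape for the replicate number and a line for the geometric mean of 3 arrays. Nrp1 in the LPS arrays (981 to 1146) lies below all other arrays, and Plxna1 of luteolin + LPS replicate 2 (539) lies far below its 2 companions.

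Nrp1 had the tightest pattern of the 8. Its signal was 1996, 1836 and 1911 in luteolin + LPS, 981, 1099.5 and 1146 in LPS, 3259, 2738 and 2876 in luteolin, and 2062, 1799 and 1983 in control arrays. The order was luteolin, then control and luteolin + LPS together, then LPS: the control and luteolin + LPS arrays overlapped, and every other pair of neighbours in that order did not. In resting cells, a comparison that shares no array with the one that chose the gene, luteolin arrays lay above control arrays by 0.60 ± 0.11 log2 units (SE, 95% interval 0.36 to 0.84, n = 3 each), a ratio of 1.52. The within-replicate differences were 0.66, 0.61 and 0.54. The adjusted p from limma was 0.136, so the gene was not called, and no gene of the 12071 was (0% called). The adjusted p was 0.0586 with the replicate number as a block and ranged between 0.00301 and 0.458 over 23 alternative settings, 2 of which made a call. In this comparison 1097 genes had an unadjusted p under 0.05, and the block called 34 genes.

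The remaining 2 comparisons of Nrp1 use the LPS arrays that chose it and are descriptions. Luteolin + LPS lay above LPS by 0.83 ± 0.11 log2 units (SE), a ratio of 1.78, and by 0.86 without luteolin + LPS replicate 2. LPS lay below control by a log2 difference of -0.86 ± 0.11 (SE), a ratio of 0.552. With both agents the geometric mean was 1913, and in control arrays it was 1945. The other 3 probe sets of Nrp1 moved the same way in all 3 comparisons. Their differences were 0.90 to 1.03 between luteolin + LPS and LPS, 0.47 to 0.62 between luteolin and control, and -1.08 to -0.92 between LPS and control. Whether the motif matches of the Nrp1 window printed above have a part in these values was not tested.

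Nrp2, which like Nrp1 binds class 3 semaphorins and VEGF family ligands, was high in LPS arrays, where Nrp1 was low. Nrp2 was also high in luteolin + LPS arrays, where Nrp1 was near its control level. Its signal was 3189, 1580.3 and 2217 in luteolin + LPS, 4037, 2317 and 1948 in LPS, 1029.5, 748 and 842 in luteolin, and 1496, 685 and 803 in control arrays. All 6 arrays with LPS exceeded all 6 without it. Nrp2 rose with LPS by 1.49 ± 0.35 log2 units over control (SE, n = 3 each), a ratio of 2.81, with an adjusted p of 0.0427 from limma. Over 23 alternative settings the adjusted p lay between 0.000512 and 0.136, and the call was lost in 11. These were leaving out any 1 of the luteolin or LPS arrays, control replicate 2 or 3, or luteolin + LPS replicate 3, using no filter on signal, and fitting only the groups compared.

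With the replicate number as a block the adjusted p of this Nrp2 difference was 0.00117, and the within-replicate differences were 1.43, 1.76 and 1.28. Of the other Nrp2 probe sets, the brighter pair gave 1.74 and 1.51, and a dim one with signals of 49.7 to 101 gave 0.25. On the brightest of these the control arrays read 353, 368 and 375, so the high control replicate 1 of the main probe set was not seen there. Luteolin left no difference that passed the test in resting cells, at -0.11 ± 0.35 log2 units (SE, 95% interval -0.89 to 0.66, adjusted p = 0.975 by limma). Between luteolin + LPS and LPS the difference was -0.24 ± 0.35, and it was 0.01 without luteolin + LPS replicate 2.

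The pair of neuropilins can be set against each other within each replicate number. Between LPS and control arrays, the Nrp2 difference exceeded the Nrp1 difference by 2.50, 2.47 and 2.07 log2 units in replicates 1 to 3. Between luteolin and control arrays it was below it, by values of -1.20, -0.48 and -0.47. The value of -1.20 includes the high control replicate 1 of the main Nrp2 probe set. The other Nrp2 probe sets gave luteolin differences of 0.02 to 0.12. Between luteolin + LPS and LPS arrays the values were -1.37, -1.29 and -0.55. Only the comparison of luteolin with control is free of the Nrp1 values that chose the group, and there Nrp1 was ahead in 3 of 3 replicates. The comparisons with LPS arrays use those values and are descriptions. LPS and luteolin were both set against the same control arrays.

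**Figure D2:**
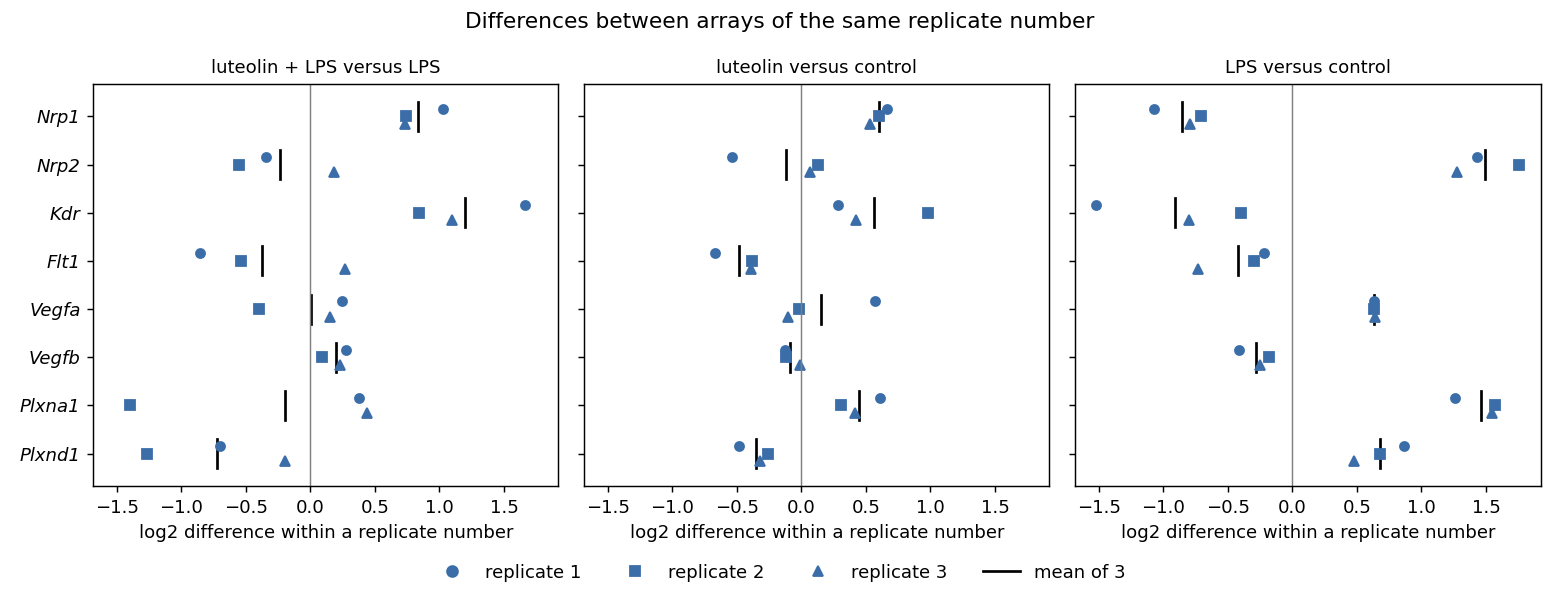
Log2 difference of each member within a replicate number, for luteolin + LPS versus LPS, luteolin versus control and LPS versus control. Symbols are the 3 replicate numbers and the line is their mean. Nrp1 and Nrp2 lie on opposite sides of 0 under LPS, and Plxna1 of luteolin + LPS replicate 2 (-1.39) lies apart from the other two.

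Among the VEGF receptors, Kdr followed the pattern of Nrp1 with a wider spread. Its only probe set read 916, 1607 and 1432 in luteolin + LPS, 289, 895 and 670.4 in LPS, 1005, 2321 and 1568 in luteolin, and 826, 1178 and 1168 in control arrays. The geometric means ran from luteolin (1541) through luteolin + LPS (1282) and control (1043.5) down to LPS (557), and of these neighbours no pair was free of overlap. The array of replicate 1 was the lowest and that of replicate 2 the highest in all 4 conditions.

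Kdr lay above LPS in luteolin + LPS arrays by 1.20 ± 0.42 log2 units (SE), a ratio of 2.30, and by 1.04 without luteolin + LPS replicate 2. This difference chose the gene and is a description. Within replicate numbers it was 1.67, 0.84 and 1.09. In resting cells luteolin arrays lay above control by 0.56 ± 0.42 log2 units (SE, 95% interval -0.35 to 1.48), with within-replicate differences of 0.28, 0.98 and 0.42. That is 3 of 3 replicates upward, but limma gave an adjusted p of 0.769, and 0.204 with the block. LPS arrays lay below control by a log2 difference of -0.90 ± 0.42 (SE), also a description since it uses the same LPS arrays, with -1.52, -0.40 and -0.80 within replicates.

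Flt1, which binds VEGF-A and VEGF-B and limits the access of VEGF-A to Kdr, did not share the luteolin pattern of Kdr. Its signal was 294, 449 and 417 in luteolin + LPS, 530.4, 652 and 347 in LPS, 389, 617 and 441 in luteolin, and 618, 803 and 577.5 in control arrays. Luteolin arrays differed from control by -0.48 ± 0.26 log2 units (SE, 95% interval -1.06 to 0.10, adjusted p = 0.646 by limma), with -0.67, -0.38 and -0.39 within replicates. The LPS difference from control was -0.42 ± 0.26 (adjusted p = 0.394), and luteolin + LPS differed from LPS by -0.38 ± 0.26, with -0.85, -0.54 and 0.27 within replicates. The last group difference was -0.49 without luteolin + LPS replicate 2 and -0.63 to -0.17 on leaving out any 1 array. No Flt1 difference passed the test. The other 3 probe sets gave luteolin differences of -0.29 to -0.02.

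Within replicate numbers, the luteolin difference of Kdr exceeded that of Flt1 in resting cells by 0.95, 1.36 and 0.81 log2 units. The sign was the same in 3 of 3 replicates, although neither gene was called by itself. Taken singly, 47.5% of all genes had 1 sign in 3 of 3 replicates between luteolin and control. The Flt1 probe set used here also had a larger luteolin fall than the other Flt1 probe sets. With luteolin + LPS against LPS the excess was 2.52, 1.38 and 0.83, a description, since it holds the Kdr values that chose the group. Endothelial cells carry Kdr and Flt1 at high levels, so markers of that type were read beside them. The summed signal of 9 endothelial markers was 378 to 456 in luteolin + LPS, 351 to 709 in LPS, 574 to 636 in luteolin and 787 to 1273 in control arrays, and the brightest of them was Vwf (von Willebrand factor), highest in control arrays. Vwf had geometric means of 178 in luteolin + LPS, 244 in LPS, 365 in luteolin and 725 in control arrays. Cldn5 had group means of 54.2 to 58.7 and Esam of 49.5 to 52.5, near the signal minimum of 50. Pecam1, Cdh5, Tek, Tie1, Emcn and Robo4 were under this minimum on all arrays. The part of these markers in the result was not tested.

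Vegfa, the ligand of Kdr, Flt1 and the neuropilins, read 949, 679 and 917 in luteolin + LPS, 799, 894 and 824 in LPS, 764, 569 and 493 in luteolin, and 515, 575 and 529 in control arrays. LPS arrays lay above control without overlap, by 0.64 ± 0.17 log2 units (SE, n = 3 each), a ratio of 1.55. The within-replicate differences were 0.63, 0.64 and 0.64. The adjusted p from limma was 0.0657. It was 0.0437 with the replicate block, and 7 of 23 alternative settings made the call.

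Leaving out luteolin + LPS replicate 2 gave this Vegfa difference an adjusted p of 0.0404, and leaving out luteolin replicate 1 gave 0.0434. The second Vegfa probe set gave 0.98 for the same comparison. Luteolin gave 0.15 ± 0.17 log2 units over control (SE, 95% interval -0.23 to 0.53, adjusted p = 0.876 by limma). Luteolin + LPS and LPS arrays had geometric means of 839 and 838, and without luteolin + LPS replicate 2 the difference was 0.16. Luteolin + LPS replicate 2 was again the lowest of its group.

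Vegfb, a ligand of Flt1 and Nrp1 that does not bind Kdr, read 959, 725 and 712 in luteolin + LPS, 789, 681 and 607 in LPS, 963, 710.1 and 716 in luteolin, and 1051, 773 and 722 in control arrays. Replicate 1 was the highest in all 4 conditions. No difference passed the test: LPS differed from control by -0.28 ± 0.19 log2 units (adjusted p = 0.43 by limma) and luteolin from control by -0.09 ± 0.19 (adjusted p = 0.956). Luteolin + LPS differed from LPS by 0.20 ± 0.19, and by 0.26 without luteolin + LPS replicate 2.

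Plxna1 and Nrp2 had the largest LPS differences of the 8 members. Plxna1, a signalling partner of both neuropilins, read 1507.5, 539 and 1748 in luteolin + LPS, 1160.4, 1414 and 1289.7 in LPS, 739.7, 588 and 591 in luteolin, and 485, 476 and 442 in control arrays. It rose with LPS by 1.46 ± 0.35 log2 units over control (SE, n = 3 each), a ratio of 2.75, with an adjusted p of 0.042 from limma and within-replicate differences of 1.26, 1.57 and 1.54. The call held in 13 of 23 alternative settings, with adjusted p between 0.000276 and 0.122. It was lost without any 1 of the control, luteolin or LPS arrays and without the filter on signal (0.0506).

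Without luteolin + LPS replicate 2 the adjusted p for Plxna1 was 0.000276. The second Plxna1 probe set gave an LPS difference of 1.34. All 3 luteolin arrays lay above all 3 control arrays, by 0.44 ± 0.35 log2 units (SE, 95% interval -0.32 to 1.20), with an adjusted p of 0.783 by limma. Between luteolin + LPS and LPS the difference was -0.19 ± 0.35 with the array and 0.34 without it, so its sign rested on that array.

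Plxnd1, a receptor for class 3 semaphorins that also acts in vessel patterning, read 1534, 768 and 1568 in luteolin + LPS, 2485, 1845 and 1797 in LPS, 978, 965 and 1032.5 in luteolin, and 1365, 1151 and 1287.5 in control arrays. Luteolin arrays lay below control arrays without overlap, by a log2 difference of -0.35 ± 0.24 (SE, 95% interval -0.89 to 0.19, adjusted p = 0.75 by limma), with -0.48, -0.25 and -0.32 within replicates. Luteolin + LPS arrays likewise lay below LPS arrays without overlap, at -0.72 ± 0.24 log2 units, or -0.38 without luteolin + LPS replicate 2.

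Plxnd1 was higher in LPS arrays than in any control array, by 0.68 ± 0.24 log2 units (SE). The adjusted p from limma was 0.146, and 0.021 without luteolin + LPS replicate 2. Plxnd1 and Nrp1 thus stood in opposite orders in resting cells: luteolin arrays were the lower for Plxnd1 and the higher for Nrp1, each without overlap.

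**Figure D3:**
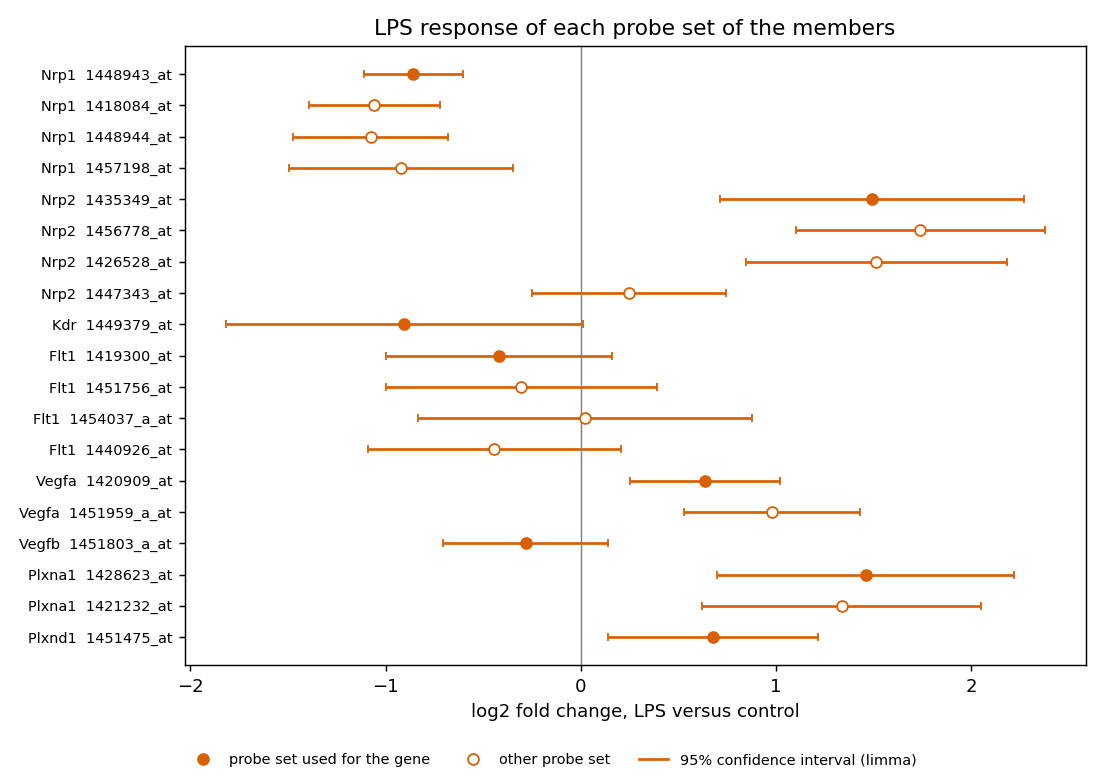
Log2 fold change between LPS and control arrays for each of the 19 probe sets of the members, with 95% confidence intervals from limma. Filled symbols mark the probe set used for the gene. The 4 Nrp1 probe sets lie between -1.08 and -0.86, and 3 of 4 Nrp2 probe sets lie between 1.49 and 1.74.

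Counted over the members, 1 of 8 was called between luteolin + LPS and LPS arrays (Nrp1), beside 0.505% of all genes. That comparison chose the group, so nothing is read from the count. Of the 8 members, 0 were called between luteolin and control. Groups did not overlap for 3 of 8 members there (Nrp1, Plxna1 and Plxnd1), beside 19.6% of all genes. Between LPS and control, Nrp2 and Plxna1 rose and 0 fell among the 6 members other than Nrp1 and Kdr. Beside them, 4.18% of all genes were called in either direction. These 6 members were also chosen with earlier results of these data known, so nothing is read from their counts here and below. With the replicate block Vegfa was called as well, beside 11.1% of all genes called by that fit. Of these 6 members, all 6 had an LPS difference of the same sign in 3 of 3 replicates, beside 55.0% of all genes. Under luteolin alone 4 of these 6 members did, and 6 of all 8, beside 47.5% of all genes. Between luteolin + LPS and LPS 2 of these 6 did, beside 40.3% of all genes. The interaction, which asks whether the luteolin difference was the same with and without LPS, was called for 0 members and for 0% of genes by limma, with 380 genes at an unadjusted p under 0.05. The interaction of Kdr was 0.64 (95% interval -0.66 to 1.93), and 0.48 without luteolin + LPS replicate 2. That of Plxna1 was -0.64 and that of Plxnd1 -0.37, but without this array they were -0.11 and -0.03. The remaining 5 members had interactions of -0.15 to 0.29.

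Kdr, Flt1, Nrp2 and Vegfb each had 1 replicate number that was highest in all 4 conditions. That is 4 of 8 members, beside 16.8% of all 12071 genes. It was replicate 2 for the VEGF receptors Kdr and Flt1 and replicate 1 for Nrp2 and Vegfb. For 1 of 8 members (Kdr, replicate 1), 1 replicate number was lowest in all 4 conditions, beside 19.1% of all genes. Averaged over conditions, Kdr deviated from its group means by -0.60, 0.44 and 0.15 log2 units in replicates 1, 2 and 3, and Nrp2 by 0.51, -0.34 and -0.18. The corresponding Nrp1 values were 0.04, -0.06 and 0.02.

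The rest of the pathway was read from lists of its parts. The other VEGF ligands had low signals: Vegfc and Vegfd were under the minimum of 50 on all arrays, and Pgf (placental growth factor) had group means between 104 and 150.4. Pgf differed by 0.43 log2 units between LPS and control (adjusted p = 0.142 by limma). Its difference between luteolin + LPS and LPS was -0.53 (adjusted p = 0.137). Of the 7 class 3 semaphorins, the ligands of the neuropilin and plexin complexes, 2 were tested, and Sema3f had group means between 1023 and 1200.4. The third VEGF receptor, Flt4, was at 64.8 to 78.0 and was not called in any comparison. Between LPS and control, 0 of 3 VEGF ligands, 0 of 2 class 3 semaphorins and 0 of 10 membrane semaphorins were called. Over all genes 4.18% were called, a share that stands beside the count of every list for this comparison. The median log2 differences of these lists were 0.43, 0.13 and 0.12, beside -0.04 over all genes. The membrane semaphorin Sema4b differed by -0.59 (adjusted p = 0.0573 by limma, 0.0314 with the block, 0.0435 without luteolin + LPS replicate 2). Sema4d, the ligand of B-type plexins, differed by 0.70 (adjusted p = 0.197).

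Of 9 plexins, only Plxna1 was called between LPS and control, beside 4.18% of all genes, and the list median was 0.12. Plxnc1, a receptor for the semaphorin Sema7a, had an LPS difference of -0.88 ± 0.24 log2 units (SE, adjusted p = 0.0657 by limma), and was called with the block at 0.0397 and without luteolin + LPS replicate 2 at 0.0403. Of the 20 measured genes of VEGF receptor signalling, Plcg2, a phospholipase C of myeloid cells, fell by 0.65 log2 units with LPS (adjusted p = 0.0417 by limma), and the list median was -0.08. With the block 2 rose and 4 fell, beside the 11.1% of all genes. Uncalled members included the kinases Src (0.88, adjusted p = 0.113) and Mapkapk2 (0.92, adjusted p = 0.115), and the adaptor Pik3r1 (-0.72, adjusted p = 0.202).

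Of the 20 measured genes of plexin and neuropilin signalling, Mical1, an oxidase of actin that acts downstream of A-type plexins, fell by 1.13 log2 units with LPS (adjusted p = 0.0373 by limma). The list median was -0.17, and 3 of 20 lay above 0, beside 45.1% of all genes. With the block 1 rose and 4 fell, again beside 11.1% of all genes. Leaving out the other arrays was not run for list genes, and without luteolin + LPS replicate 2 the calls of Plcg2 and Mical1 held at 0.0448 and 0.0348. Trem2 and Tyrobp, which pair with Plxna1 in myeloid cells and pass its signal on, had LPS differences of -0.86 and -0.53 (adjusted p = 0.0657 and 0.0648 by limma, 0.00819 and 0.0109 with the block), whereas Plxna1 itself rose. Of the 8 genes of oxygen sensing, which control Vegfa through the factor encoded by Hif1a, 0 were called, beside 4.18% of all genes. Hif1a differed by 0.47 between LPS and control (adjusted p = 0.104, 0.025 with the block), whereas Epas1, which encodes a related factor, differed by -0.79 (adjusted p = 0.238, 0.204 with the block). Egln1 and Egln2, whose products mark these factors for breakdown, differed by -0.60 and -0.52 (adjusted p = 0.457 and 0.0704, 0.0296 and 0.00848 with the block). Between luteolin and control 0 genes of any list were called, beside 0% of all genes. The largest differences among plexin and neuropilin signalling genes there were -0.61 for the kinase Fyn (adjusted p = 0.187) and -0.59 for Farp1 (adjusted p = 0.203). Between luteolin + LPS and LPS, 0 genes of the signalling and oxygen sensing lists were called, beside 0.505% of all genes. With the block, VEGF receptor signalling had 2 higher (Pik3r1 and Shc1), plexin and neuropilin signalling 1 lower (Rnd1, -0.78), and oxygen sensing 3 higher. These 3 were Vhl (0.66), Egln1 (0.60) and Egln2 (0.53), with block adjusted p of 0.0241, 0.0459 and 0.0208. That fit called 4.79% of all genes here.

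**Figure D4:**
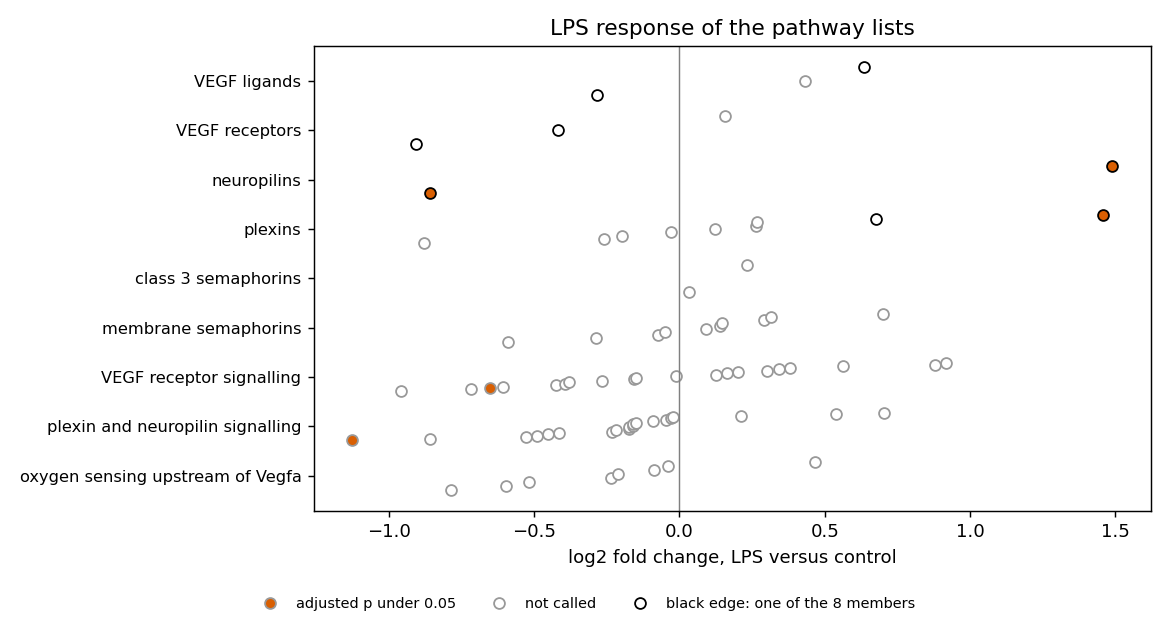
Log2 fold change between LPS and control arrays for the tested genes of 9 pathway lists, 1 symbol per gene. Filled symbols passed an adjusted p of 0.05 in limma, and black edges mark the 8 members. The called genes are Nrp1, Nrp2, Plxna1, Plcg2 and Mical1, with differences between -1.13 and 1.49, and Nrp1 is there as a description.

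Genes whose pattern over the 12 arrays was most like that of Nrp1 were found by the root mean square difference of log2 values after each gene's mean was subtracted. They were 5730409E04Rik at 0.188 log2 units, Rnpepl1, an aminopeptidase relative, at 0.191, S1pr1, a receptor for sphingosine-1-phosphate, at 0.195, and Bach1, a haem-binding transcriptional repressor, at 0.195. Nrp1 itself had a standard deviation of 0.55 over the arrays. For S1pr1 the geometric means were 195 in luteolin + LPS, 112 in LPS, 286 in luteolin and 216 in control arrays. Nearest to Kdr, whose standard deviation was 0.76, were Fasn, the fatty acid synthase, at 0.261, Clcn4, a chloride transporter, at 0.282, Epop at 0.283 and Tob2 at 0.291. Fasn had geometric means of 2063 in luteolin + LPS, 958 in LPS, 2380.3 in luteolin and 1608 in control arrays. These genes were picked for likeness, so no test is given for them.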

How the data were processed

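The series holds 12 arrays of BV-2 cells. The authors summarized probe intensities with RMA in Expression Console, and deposited linear-scale intensities (median 52.2 to 56.4 per array, within-condition r 0.978 to 0.996). The number of arrays limits the precision. Of 45101 probe sets, 34958 named 1 gene, 932 several and 9211 were left unnamed here. The log2 was taken, and the probe set of highest mean log2 was kept per gene. Genes with a mean of 50 or more in at least 1 condition were fitted with limma 3.58.1 in R 4.3.3 as 4 group means. The fit was checked on simulated data with independent noise on each array, which lack the shared deviations of a replicate number. Same-numbered arrays deviated together (r between 0.101 and 0.591 in all 18 pairs), and the study describes 3 separate stimulation experiments, so the replicate number was a block in the alternative fit. In 36 pairs of different number and condition, r lay between -0.563 and 0.483, and 8 of them exceeded 0.1. The other alternatives changed the filter, the probe set rule, the scaling, the weights and the arrays used. Single-probe tests were not run.

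Named genes were all members, list genes called or with the largest difference (up to 4 in each list), and the 4 nearest in pattern to Nrp1 and Kdr. The members and lists were chosen with earlier results of these data known. The extraction protocol in the labels names PUER cells and the methods name LPS for both parts of the joint treatment, whereas the labels' treatment protocol gives BV-2 cells and luteolin with LPS, which was used.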

Additional observations from a re-analysis of the deposited data

Results flagged for a closer look

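Vegfb is listed because luteolin moved it one way with LPS and the other way without. Its signal was higher in luteolin + LPS than in LPS arrays in 3 of 3 replicates (0.28, 0.09 and 0.23 log2 units) and lower in luteolin than in control arrays in 3 of 3 (-0.13, -0.12 and -0.01). The interaction was 0.29 log2 units (95% interval -0.31 to 0.88), and limma gave it an adjusted p of 0.999, and 0.75 with the replicate block, so the difference between the 2 settings did not pass the test.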

How the results depend on the processing

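Of 728 values of a member in a comparison under an alternative setting, 666 kept their direction and side of the threshold, 22 lost and 14 gained the call, and 26 changed sign. The number of arrays limits what could be called, and the causes of these changes were not tested. Between luteolin + LPS and LPS, 61 genes were called, 578 with the replicate block, 444 with it as a random block, 292 with array weights, 0 with only the groups compared (which leaves fewer arrays), and 11 to 142 on leaving out 1 array. Between luteolin and control the counts were 0, 34, 23 and 962 in the same order of main, block, random block and array weights, and 0 to 1 on leaving out 1 array. Between LPS and control they were 505, 1338, 1259 and 1950, 306 with only the groups compared, and 197 to 660 on leaving out 1 array. For the interaction the count was 0, 5 with array weights, and 0 to 2 on leaving out 1 array. Beyond those named in the text, the block changed the call of Kdr between luteolin + LPS and LPS and between LPS and control, and of no other member.

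Sign changes were seen only for differences under 0.25 log2 units in size, none of them called. Between luteolin + LPS and LPS, leaving out 1 array gave -0.0872 to 0.16 for Vegfa (-0.0029 with the mean of probe sets), -0.49 to 0.0733 for Nrp2 and -0.51 to 0.34 for Plxna1. Between luteolin and control it gave -0.34 to 0.22 for Nrp2 (0.0304 with the mean of probe sets, 0.0675 with array weights), -0.0247 to 0.29 for Vegfa (-0.0057 with array weights) and -0.23 to 0.0776 for Vegfb. For the interaction it gave -0.15 to 0.30 for Flt1 (-0.0658 with the mean of probe sets), -0.29 to 0.0266 for Vegfa (0.0084 with array weights) and -0.46 to 0.19 for Nrp2.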
